A study of Homo sapiens with 16 samples.

Results

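Enzalutamide was compared with its DMSO vehicle in LNCaP cells, averaged over the presence and absence of ionizing radiation (IR). LNCaP is an established human prostate cancer line that depends on androgen signalling. Transcription was read by PRO-seq, in which nuclei run on labelled nucleotides at engaged polymerases, so that it reports ongoing transcription rather than accumulated mRNA. The comparison uses 8 of the 16 libraries of the series, chosen as all libraries of the second experimental batch: 4 with drug against 4 without. The 4 groups, each with replicates 3 and 4, were DMSO for 90 min, DMSO over 90 min with 6 Gy given after the first 30 min, 10 µM enzalutamide for 90 min, and the same dose of drug present over 90 min with 6 Gy given after the first 30 min. The other 8 libraries, from a first batch of mock and irradiated cells without drug, serve only as a separate readout of radiation. Nothing in the labels says that replicates came from separate cultures, so p-values measure the spread between these samples, which may be technical. The title of the series names its question, whether androgen signalling directly regulates DNA damage response genes.

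Androgens act on luminal prostate cells by changing transcription at response elements in enhancers and promoters. The genes they induce there include secreted kallikrein proteases, transporters, lipid enzymes and growth regulators. Enzalutamide is an antiandrogen used against prostate cancer, and it blocks this transcriptional programme.

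The 8 libraries held 10494563 to 19905824 counted reads, with a median of 14669929. Replicates of each group differed by more than sampling noise, with a chi-square per degree of freedom between 3.61 and 7.35. Markers of luminal prostate cells were high in every library, at a summed 3227 to 3984 CPM (TMM-scaled counts relative to library size) without drug and 3006 to 3585 CPM with it, and 6 of the 11 were called lower and 1 higher. The tested markers of other cell types were low: 5.38 to 8.30 CPM without drug and 4.37 to 7.60 with it for 3 of 4 basal markers, 9.0 to 13.4 and 11.6 to 17.6 for 2 of 5 neuroendocrine markers, 15.4 to 22.3 and 15.2 to 21.3 for 5 of 6 stromal markers, and 71.1 to 78.7 and 70.4 to 80.2 for 4 of 6 immune or endothelial markers. CHGA, a defining neuroendocrine gene, had 0 reads in all 8 libraries. Of these other-cell markers only VWF, an endothelial gene, was called, and it was lower with drug (log2 fold change -0.46, SE 0.0829, edgeR adjusted p = 0.00397). Those with the smallest p in the other lists did not pass: KRT14 (-0.79), TP63 (-0.30), SYP (0.23), NCAM1 (0.11), DCN (-0.67) and ACTA2 (-0.20), with edgeR adjusted p from 0.294 to 0.801.

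Within 90 min of enzalutamide a set of genes was called lower, and a smaller set was called higher by smaller amounts. Of the lowered genes, MBOAT2, ZBTB16 and KLK2, all known androgen targets, had the smallest p-values. Of 28651 genes tested with edgeR, 272 (0.949%) passed an adjusted p of 0.05, of which 191 (0.667%) were lower and 81 (0.283%) higher with drug. On the log2 scale the lowered genes had a median change of -0.32, which is a 1.245-fold decrease, and 7 of them fell more than 2-fold. The raised genes had a median of 0.25, or 1.19-fold, and 0 of them rose 2-fold. Of the lowered genes, 189 were lower in all 4 drug against vehicle pairs of the same radiation state and replicate number, a direction that 2504 of all genes tested (8.74%) also showed. In 81 of the 191 the 4 drug libraries lay below all 4 libraries without drug, against 355 of all genes tested (1.24%). In 24 of the 81 raised genes they lay above all 4, against 386 of all genes tested (1.35%). The called genes were selected on these same libraries, so these counts describe them and are no separate evidence. Over all genes the median log2 fold change was 0.0014. At an unadjusted p under 0.05 in edgeR there were 3266 genes, so the number called is no count of all genes affected.

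The number of calls rested on the replicate term and on single libraries. Without the replicate block 18 genes were called, all of them lower, and 10 of the 18 were in the androgen-induced lists described below. Of the genes called in the averaged effect and named below, the 18 include MBOAT2, ZBTB16, TMPRSS2, SLC45A3, PMEPA1, MAOA, ZBTB10, ELL2, ABCC4, TMEM132D, SLC2A12 and ENSG00000286886, and every other called gene named below lost its call without the block. Counts ran from 109 without vehicle replicate 4 to 792 without enzalutamide replicate 3, with 160 without vehicle replicate 3, 155 without irradiated vehicle replicate 4 and 169 without irradiated enzalutamide replicate 3. All 272 genes had the same direction in each of these 8 fits, while 80 lowered and 8 raised genes were called in every one of them. Each of these fits leaves 1 group with a single library, which is assumed to vary like the other groups.

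**Figure D1:**
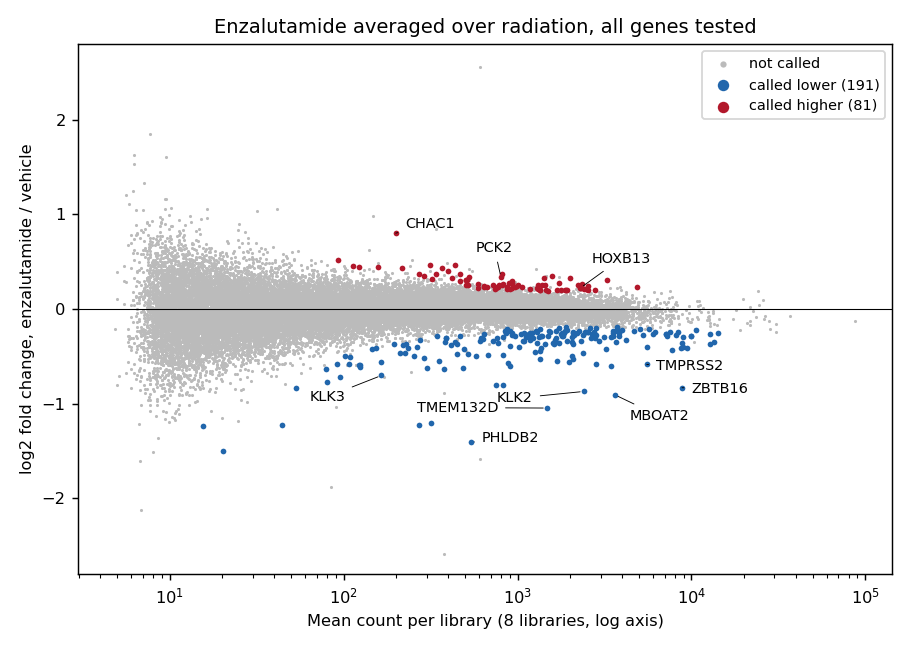
Each point is 1 of the 28651 genes tested; the x axis gives the mean count per library over 8 libraries on a log axis, and the y axis the log2 fold change of enzalutamide over vehicle from the edgeR fit. The 191 genes called lower (blue) reach further from 0 than the 81 called higher (red), and the labelled genes below the line include the androgen targets MBOAT2, ZBTB16, KLK2, KLK3 and TMPRSS2.

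Among the strongest responses were 4 genes with tight replicates. Values are given as CPM in the order vehicle replicates 3 and 4, irradiated vehicle replicates 3 and 4, and then the same order with drug. MBOAT2, a lysophospholipid acyltransferase, gave 305, 327, 306 and 292 CPM without drug and 172, 169, 143 and 172 CPM with drug. Its 2 arms did not overlap, and its level fell by 46.6% (log2 fold change -0.91, SE 0.0515, edgeR adjusted p = 5.32e-10). ZBTB16, the transcription factor PLZF, gave 802, 820, 650 and 655 CPM without drug and 429, 425, 391 and 393 CPM with drug. It too separated the arms completely (-0.83, SE 0.0506, edgeR adjusted p = 1.08e-09). Both irradiated vehicle libraries of ZBTB16 lay below both unirradiated ones, and every drug library lay lower still.

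TMPRSS2, the transmembrane serine protease whose promoter is fused to ETS genes in many prostate tumours, gave 490, 461, 390 and 394 CPM without drug and 294, 294, 294 and 270 CPM with drug. SLC45A3, the membrane protein prostein, gave 75.6, 73.2, 64.1 and 59.3 CPM without drug and 50.1, 49.5, 42.5 and 41.4 CPM with drug. In each case the highest drug library lay below the lowest library without drug. The falls were -0.59 (SE 0.0515, edgeR adjusted p = 3.95e-07) for TMPRSS2 and -0.57 (SE 0.0492, edgeR adjusted p = 3.63e-07) for SLC45A3 on the log2 scale. MBOAT2, ZBTB16, TMPRSS2 and SLC45A3 also passed the test without the replicate block.

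**Figure D2:**
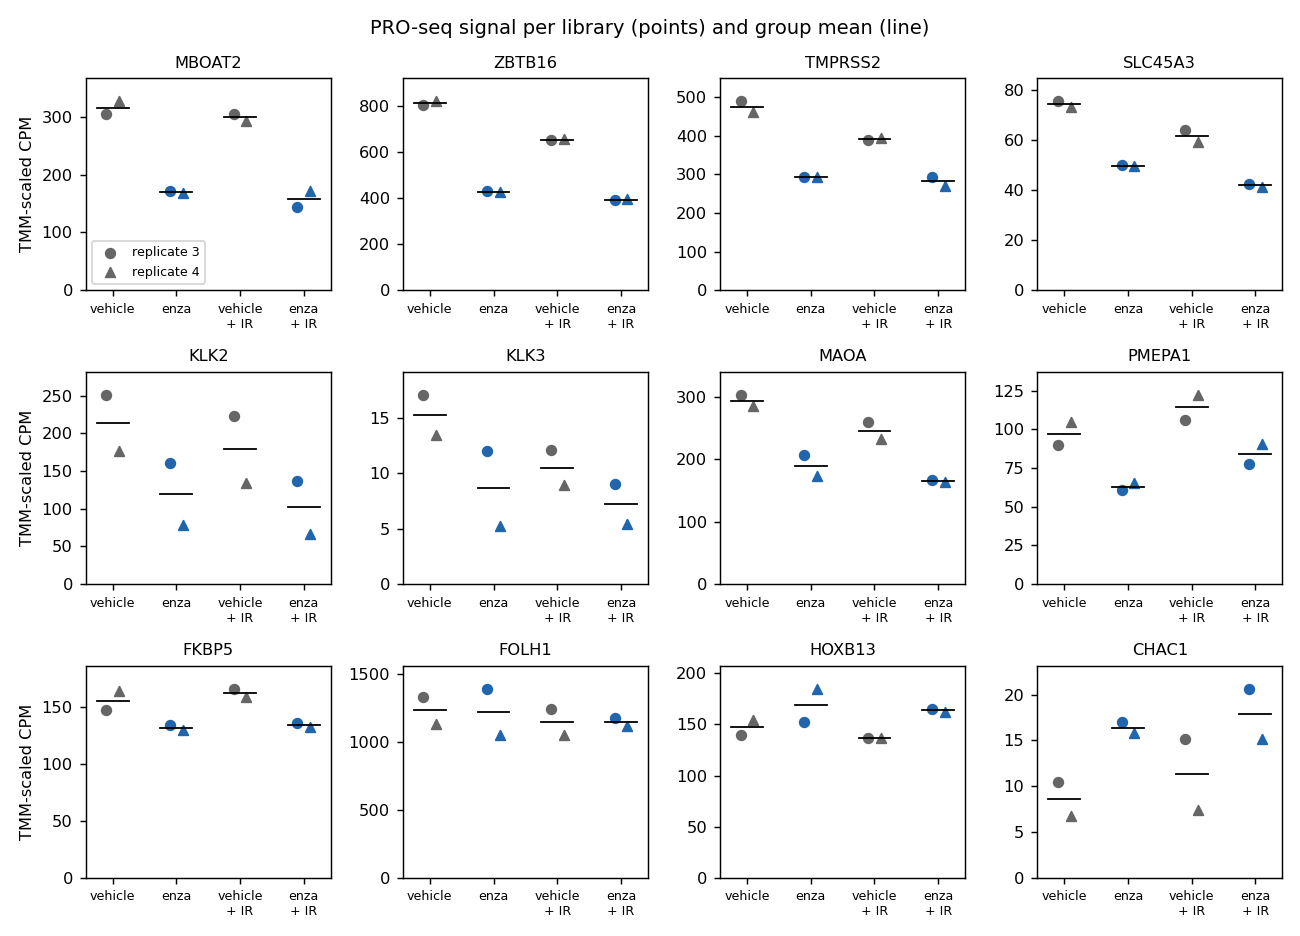
TMM-scaled CPM on the y axis for 12 genes in the 4 groups on the x axis; circles are replicate 3, triangles replicate 4, lines group means, and blue marks libraries with drug. In MBOAT2, ZBTB16, TMPRSS2, SLC45A3, MAOA and FKBP5 every blue point lies below every grey point, whereas KLK2 and KLK3 also differ between replicate numbers.

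The kallikreins KLK2 and KLK3 are shown with their upstream sequence because they are the classical androgen targets of prostate cells and lie side by side on the genome. The 250 bases before each gene's RefSeq start (GRCh38.p14, plus strand, chr19:50873189-50873438 for KLK2 and chr19:50854665-50854914 for KLK3) are printed 5′ to 3′, with the letters matching GAACANNNAGTGCT in capitals.
KLK2: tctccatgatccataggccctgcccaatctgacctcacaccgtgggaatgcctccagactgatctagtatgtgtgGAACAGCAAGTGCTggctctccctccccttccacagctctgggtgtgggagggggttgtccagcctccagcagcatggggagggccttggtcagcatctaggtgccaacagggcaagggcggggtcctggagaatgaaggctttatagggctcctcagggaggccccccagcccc
KLK3: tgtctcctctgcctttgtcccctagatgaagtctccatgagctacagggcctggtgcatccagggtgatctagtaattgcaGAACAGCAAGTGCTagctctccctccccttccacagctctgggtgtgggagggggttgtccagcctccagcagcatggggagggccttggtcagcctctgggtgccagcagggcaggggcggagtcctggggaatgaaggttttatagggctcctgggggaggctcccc
The match begins 175 bases before the start of KLK2 and 169 before that of KLK3. The 2 sequences were identical at 205 aligned bases and mismatched at 36, that is 85.1% identical where aligned. The pattern GAACANNNAGTGCT was chosen after looking at these sequences, and on either strand it occurs in 13 of the 27305 RefSeq promoters (0.0476%), which run from 250 bases before to 50 after the start. The matching promoters include those of KLK2 and KLK3 and, of the 134 lowered genes with a promoter in the table, no other. The full palindrome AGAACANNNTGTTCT was in 1 of the 27305 promoters and in 0 of the 134. Its half-site AGAACA, counted on both strands and contained in the full palindrome, was in 12 of the 134 (8.96%), in 7 of 57 promoters of raised genes (12.3%) and in 1698 of 15422 promoters of tested genes (11.0%).

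KLK2, a secreted serine protease, gave 251, 176, 223 and 134 CPM without drug and 160, 78.7, 137 and 66.1 CPM with drug. KLK3, which encodes prostate-specific antigen, gave 17.1, 13.5, 12.1 and 8.92 CPM without drug and 12, 5.28, 9.07 and 5.43 CPM with drug, from 57 to 284 reads per library. For each gene the arms overlapped, since replicate 4 lay below replicate 3 in all 4 groups (by 29.9% to 51.8% for KLK2 and by 21.2% to 56.0% for KLK3). Within a replicate number and radiation state the drug library was the lower in all 4 pairs. The averaged log2 fold changes were -0.87 for KLK2 (SE 0.0652, edgeR adjusted p = 4.67e-08) and -0.70 for KLK3 (SE 0.118, edgeR adjusted p = 0.00204). Neither passed without the replicate block. The 2 genes are close paralogs, and how reads that match both were counted is not given in the sources used here.

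The kallikrein genes were part of the largest run of neighbours among the lowered genes. Of the 171 lowered genes with a RefSeq position, 31 fell into 13 groups whose members lie within 100 kb of the next. The largest spans chr19:50825289-50911395 (GRCh38.p14) and holds KLK15, KLK3, KLK2, the pseudogene KLKP1 and KLK4. KLK4, another secreted protease, fell by 0.37 on the log2 scale (SE 0.0562, edgeR adjusted p = 0.000704). KLK15 and KLKP1, which the naming rule did not select, fell by 0.39 and 0.33. Another group on chromosome 7 held STEAP1, STEAP2 and CFAP69, and one on chromosome 1 held ELK4 and SLC45A3. The sources used here do not say whether counting used strand, and reads running on from 1 gene into the next could not be separated in these groups. Among the raised genes 11 of 69 with a position fell into 4 groups, of which the largest was 5 histone genes on chromosome 6.

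Across 79 genes in 4 lists of genes known to be induced by androgen, 35 (44.3%) were called lower and 0 higher, beside 0.667% lower among all genes tested. Their median log2 fold change was -0.19 and 63 of the 79 were below 0. Of the 35, 20 were called in all 8 fits that left out 1 library. The count was 22 without vehicle replicate 4 and 10 without the replicate block. The lists were written with earlier results of these data known, so these counts are a description.

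Of the 16 prostate targets 12 fell (4 without the replicate block), with a list median of -0.34. TRPM8, a cold-gated cation channel, gave 30.8, 22.4, 22.4 and 18.5 CPM without drug and 18.1, 13.2, 17.1 and 12.7 CPM with drug (-0.62, edgeR adjusted p = 9.87e-05). PMEPA1, a membrane protein that dampens TGF-beta signalling, gave 89.9, 105, 106 and 122 CPM without drug and 61.0, 65.0, 77.4 and 90.8 CPM with drug (-0.53, edgeR adjusted p = 9.01e-07). The arms of TRPM8 were just separate and those of PMEPA1 overlapped slightly, and the drug library was the lower in each pair of both genes. Without the replicate block PMEPA1 kept its call and TRPM8 lost it. STEAP1 (-0.29) and STEAP2 (-0.27), members of a metalloreductase family, SPDEF (-0.25), an ETS transcription factor of secretory epithelium, and TPD52 (-0.21) also fell, with edgeR adjusted p from 0.00832 to 0.0184. Their calls were less stable: without vehicle replicate 4 all 4 lost the call, as did 1 or more of them without vehicle replicate 3, irradiated vehicle replicate 3, enzalutamide replicate 4 or irradiated enzalutamide replicate 3. STEAP4 (-0.35), AZGP1 (-0.29), NDRG1 (-0.08) and ACP3 (0.12) did not pass. STEAP4 and AZGP1 were at most 3.91 CPM in any library, and their 95% intervals were the widest of the list.

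Genes induced by androgen and also by glucocorticoids or progestins divided into 6 that fell and 8 that did not pass, with a median of -0.22 over the 14. MAOA, which oxidises monoamines, gave 303, 285, 260 and 232 CPM without drug and 207, 173, 166 and 163 CPM with drug. Its arms were separate (-0.60, SE 0.0477, edgeR adjusted p = 9.70e-08). ZBTB10 (-0.55), a zinc finger repressor, ELL2 (-0.44), an elongation factor of RNA polymerase II, and ARID5B (-0.29) fell beside ZBTB16 and MAOA. FKBP5, the co-chaperone that is a standard marker of steroid receptor activity, gave 147, 164, 166 and 158 CPM without drug and 134, 130, 135 and 132 CPM with drug. The fall of FKBP5 was small but the arms did not overlap (-0.26, SE 0.0471, edgeR adjusted p = 0.00502). ARID5B and FKBP5 lost the call without vehicle replicate 4 and without the replicate block, under which ZBTB16, MAOA, ZBTB10 and ELL2 kept theirs.

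The other steroid-responsive genes gave log2 fold changes of -0.33 for MAF, -0.19 for SGK1, -0.17 for CEBPD, -0.05 for KLF9, -0.04 for PER1, 0.08 for TIPARP, 0.13 for ERRFI1 and 0.14 for TSC22D3. PER1, a core clock gene, was nearly level at 41.9, 41.6, 39.6 and 42.8 CPM without drug and 38.9, 40.5, 41.0 and 41.4 CPM with drug. TSC22D3, the glucocorticoid-induced leucine zipper, gave 65.0, 55.1, 52.6 and 42.2 CPM without drug and 71.8, 54.2, 57.9 and 51.8 CPM with drug.

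**Figure D3:**
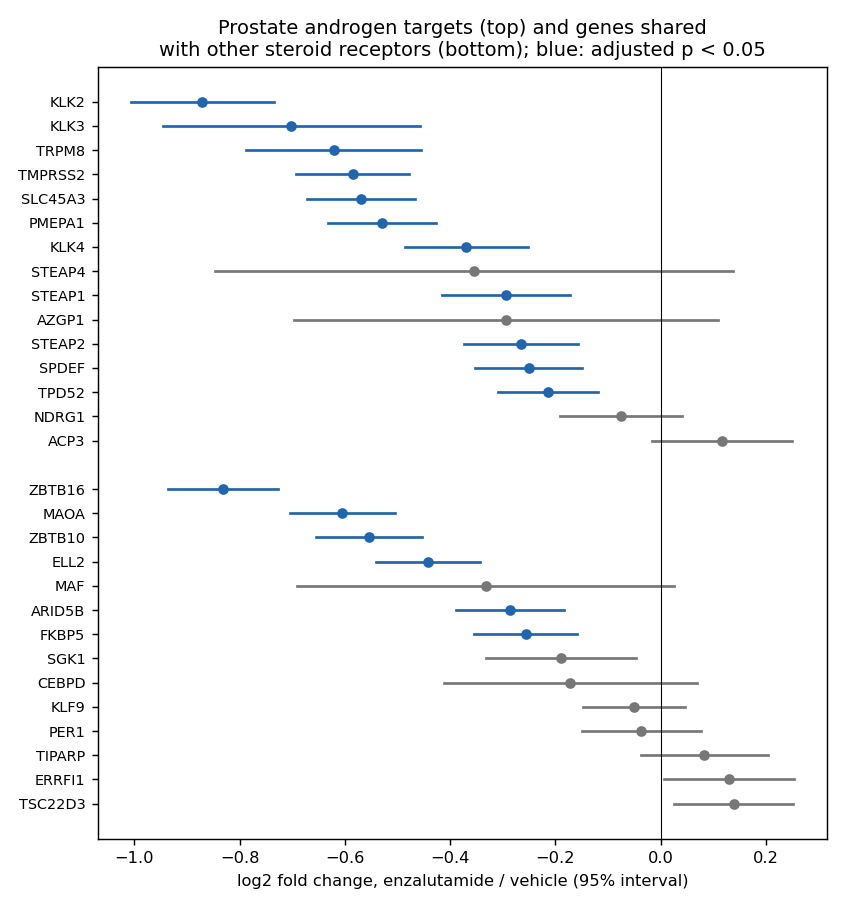
Log2 fold change of enzalutamide over vehicle on the x axis, with 95% intervals, for prostate targets (top) and the 14 genes shared with other steroid receptors (bottom); blue marks genes with an edgeR adjusted p under 0.05. KLK2 and ZBTB16 lead the lists, and 0 of the genes on the right of the zero line passed the test.

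In lipid and membrane metabolism 6 of 19 listed genes fell (3 without vehicle replicate 3, and MBOAT2 alone without the replicate block). Beside MBOAT2, PLPP1, a phospholipid phosphatase at the cell surface, gave 1211, 830, 972 and 678 CPM without drug and 969, 558, 799 and 545 CPM with drug (-0.37, edgeR adjusted p = 0.000518). Its arms overlapped because replicate 4 was the lower in every group. ELOVL2, ELOVL5 and ELOVL7, which elongate fatty acids, fell by 0.84, 0.20 and 0.30 on the log2 scale, and ANKH, a pyrophosphate transporter, by 0.24. ELOVL2 was at 5.18, 4.27, 4.16 and 4.11 CPM without drug and 2.49, 2.78, 2.43 and 2.29 CPM with drug, and its call was lost without vehicle replicate 3. The list median was -0.03. Enzymes and regulators of sterol and fatty acid synthesis in the same list, chosen here after their values were seen, lay near 0: FASN at 0.12, SCD at 0.00 and SREBF1 at 0.07.

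Of 30 genes of metabolism and signalling 11 fell (6 without vehicle replicate 4, and ABCC4 alone without the replicate block), with a list median of -0.17. ABCC4, an efflux pump for cyclic nucleotides and drugs, gave 410, 463, 371 and 398 CPM without drug and 324, 332, 272 and 318 CPM with drug (-0.40, edgeR adjusted p = 2.94e-05). CAMKK2, a calcium-dependent kinase upstream of AMPK, gave 160, 135, 170 and 140 CPM without drug and 121, 100, 141 and 114 CPM with drug (-0.35, edgeR adjusted p = 0.000105). HERC3, a ubiquitin ligase, fell by 0.33. ABCC4 separated the arms, while CAMKK2 and HERC3 differed within every pair but overlapped between arms and lost their calls without the replicate block.

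Outside the lists, the rule for the largest falls named further transcripts, some of which were uneven between libraries. TMEM132D, a transmembrane protein of the nervous system, gave 98.4, 86.9, 232 and 115 CPM without drug and 55.4, 37.5, 81.2 and 77.3 CPM with drug (-1.05, SE 0.0932, edgeR adjusted p = 4.31e-07). ST6GALNAC1, a sialyltransferase, fell by 0.72, and the unnamed transcript ENSG00000287530 by 0.77. PHLDB2 had the largest fitted fall among called genes averaging at least 50 counts, -1.41 (SE 0.261, edgeR adjusted p = 0.00553). Its values were 20.9, 71.6, 20.7 and 101 CPM without drug and 20.1, 15.8, 15.5 and 14.7 CPM with drug, so that both high libraries were replicate 4 and replicate 3 barely differed without IR. PLCXD2, its neighbour on chromosome 3, named after its values were seen, gave 37.3, 87.3, 40.4 and 120 CPM without drug and 38.4, 35.7, 36.4 and 36.8 CPM with drug. PHLDB2 lost its call without vehicle replicate 4, without irradiated enzalutamide replicate 4, without the replicate block and in DESeq2.

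FOLH1, which encodes prostate-specific membrane antigen and is raised by long androgen blockade, gave 1331, 1133, 1243 and 1046 CPM without drug and 1390, 1048, 1174 and 1117 CPM with drug. Its log2 fold change was -0.01, with a 95% interval of -0.12 to 0.11.

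Cofactors of androgen signalling had narrow intervals around small changes at 90 min. Of 22 genes 1 fell and 1 rose, beside 0.667% lower and 0.283% higher among all genes tested, so that 1 call in each direction is no result about the list. The median was 0.01, and for all 22 the 95% interval lay within 1.5-fold, as it did for 71.8% of all genes tested. NCOA1, a p160 coactivator, fell by 0.20 (edgeR adjusted p = 0.0435), and HOXB13, a homeobox factor of prostate epithelium, rose by 0.22 (edgeR adjusted p = 0.0333). HOXB13 gave 140, 155, 137 and 136 CPM without drug and 152, 185, 166 and 162 CPM with drug, with 1 vehicle library inside the range of the drug libraries. Both calls were lost in 6 of the 8 fits that left out 1 library, and held for NCOA1 without enzalutamide replicate 3 or irradiated enzalutamide replicate 4 and for HOXB13 without the same libraries.

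**Figure D4:**
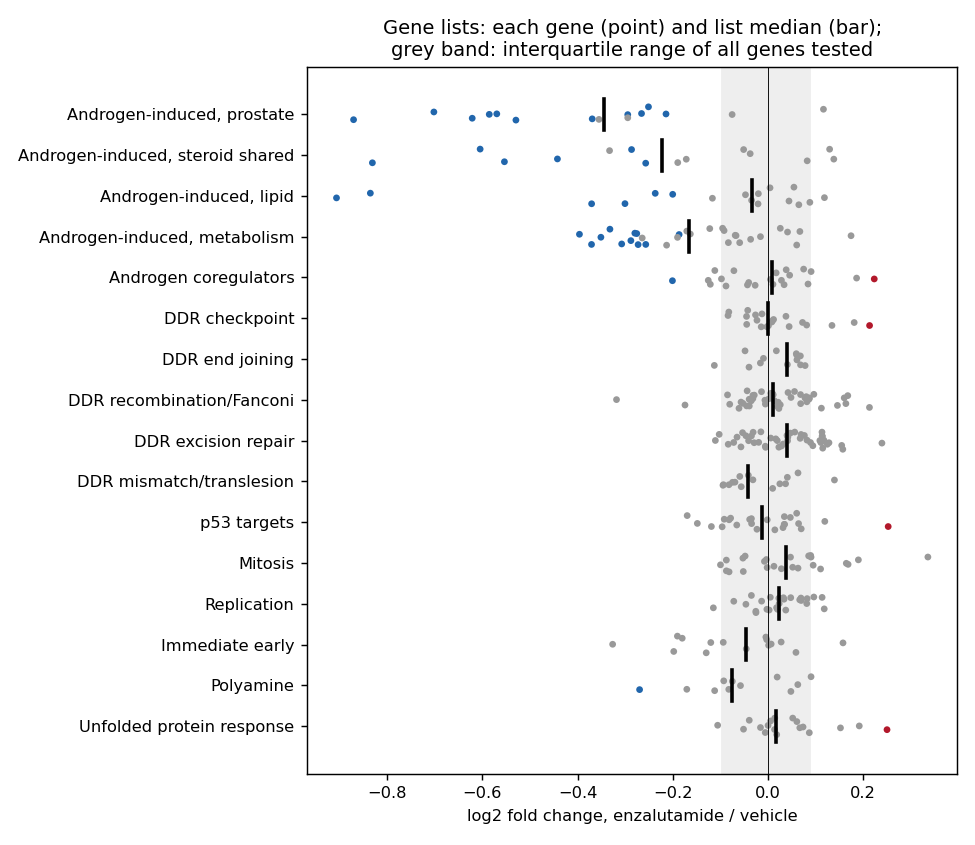
Log2 fold change of enzalutamide over vehicle on the x axis for the genes of each list; bars are list medians (genes not reported here enter them but are not drawn), blue and red mark genes called lower and higher, and the grey band spans the interquartile range of all genes tested. Prostate and steroid-shared targets extend to the left, while DNA damage response (DDR), p53, mitosis and replication genes lie around 0.

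CHAC1, a glutathione-degrading enzyme of the amino acid stress response, had the largest rise by the rule. It gave 10.5, 6.74, 15.2 and 7.45 CPM without drug and 17.1, 15.8, 20.6 and 15.2 CPM with drug (0.80, SE 0.112, edgeR adjusted p = 0.000239). Replicate 4 was the lower in every group, by more without drug than with it, and the drug arm barely met the highest library without drug. Of the 12 largest rises named by the rule CHAC1 was the only 1 called in all 8 fits that left out 1 library. The other 11 were UQCC4, MAPK11, CYBA, RPS6KB2-AS1, BLOC1S1, ZFPL1, KBTBD4, the U1 RNA gene RNU1-4, and the transcripts ENSG00000267811, ENSG00000286699 and ENSG00000287142, with log2 fold changes from 0.37 to 0.52. Of the 12 largest falls 8 were called in all 8 fits, the exceptions being PHLDB2, GPA33, ELOVL2 and ABCB1. RNU1-4 belongs to a family of near-identical copies and RPS6KB2-AS1 is antisense to another gene, so their values are uncertain.

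DNA damage response genes, the subject of the series, had small fitted changes under enzalutamide. Of 139 genes in 5 lists 0 were called lower and 1 higher, beside 0.667% lower and 0.283% higher among all genes tested. These counts are near the shares of all genes and do not set the lists apart. The median log2 fold change was 0.01, and without the replicate block 0 of the 139 were called. The 95% interval lay within 1.5-fold for 137 of the 139, against 71.8% of all genes tested, and its median half-width was 0.11 on the log2 scale, against 0.22 over all genes. The exceptions, SLX1A and FAN1, averaged 8.38 and 11.9 reads per library. The gene called higher was CLSPN, which encodes claspin, the adaptor through which ATR activates CHK1. It gave 63.6, 67.5, 82.1 and 80.9 CPM without drug and 72.6, 85.4, 89.3 and 93.8 CPM with drug (0.21, 95% interval 0.11 to 0.32, edgeR adjusted p = 0.0391). The drug library was the higher in all 4 pairs of CLSPN, a direction that 11.8% of all genes tested also showed. The arms of CLSPN overlapped, and its call was lost in 6 of the 8 fits that left out 1 library, holding without irradiated vehicle replicate 3 or enzalutamide replicate 3.

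Genes nearest to a call in the other repair lists did not pass in the main fit, at log2 fold changes from -0.17 to 0.24. The largest of these, APEX1, had a 95% interval of 0.07 to 0.41 (edgeR adjusted p = 0.231). In non-homologous end joining, where broken ends are religated directly, XRCC5 (Ku80) gave 294, 297, 348 and 296 CPM without drug and 300, 263, 292 and 286 CPM with drug (-0.11, 95% interval -0.22 to -0.01, edgeR adjusted p = 0.378). APTX, which repairs abortive ligation ends, was at 0.07. In homologous recombination BARD1, the partner of BRCA1, gave -0.17 (95% interval -0.29 to -0.06, edgeR adjusted p = 0.154) and the helicase RECQL5 gave 0.16. BARD1 passed only when enzalutamide replicate 3 was left out or low counts were not filtered. In excision repair the abasic endonuclease APEX1 gave 0.24 and the uracil glycosylase SMUG1 0.12, and APEX1 passed without enzalutamide replicate 3. In mismatch repair and translesion synthesis REV1 gave -0.09 and MAD2L2 0.14.

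The same libraries registered radiation strongly in p53 targets and mitosis genes, but with a small median in the damage response lists. In those 139 genes the median for radiation averaged over drug was 0.08. Radiation called 32 of them higher and 8 lower, beside 8.01% and 7.02% of all genes. The p53 and mitosis values below are therefore no scale for the damage response genes. Among 24 p53 targets the median log2 fold change was -0.01 for the drug and 1.63 for radiation averaged over drug. Radiation called 23 of them higher, beside 8.01% of all genes, while the drug called 1, beside 0.283%. That gene was SESN2, a stress-induced regulator of mTOR, at 64.2, 67.9, 239 and 217 CPM without drug and 81.7, 91.8, 258 and 247 CPM with drug (0.25, edgeR adjusted p = 0.0298). Its call was lost without vehicle replicate 3 or 4, irradiated vehicle replicate 4, enzalutamide replicate 4 or irradiated enzalutamide replicate 3. Among 24 mitosis genes the medians were 0.04 for the drug and -0.90 for radiation. Radiation called 23 of those lower, beside 7.02% of all genes, and the drug called 0, near the share of all genes. AURKA and PLK1, 2 mitotic kinases, were at 0.16 and 0.17 under the drug, and AURKA passed without enzalutamide replicate 3.

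Other listed groups showed single calls or none, beside 0.667% lower and 0.283% higher among all genes, and counts this small in short lists are no result about the groups. Of 27 replication genes 0 were called, with a median of 0.02 and with TK1 at 0.12 and ORC1 at 0.11. Of 15 tested immediate early genes 0 were called. MYC, the growth-promoting transcription factor, gave 288, 271, 236 and 200 CPM without drug and 284, 224, 202 and 174 CPM with drug (-0.18, SE 0.0482, edgeR adjusted p = 0.0837). MYC passed with library totals, with no filter, with the stricter filter, in DESeq2 and without enzalutamide replicate 3. JUND, of the AP-1 family, was at -0.12. Of 11 polyamine genes AMD1, the S-adenosylmethionine decarboxylase that feeds spermidine and spermine synthesis, fell by 0.27 (edgeR adjusted p = 0.00677, lost without vehicle replicate 4 and without the replicate block). Of 18 unfolded protein response genes DDIT3, the stress factor CHOP, rose by 0.25 (edgeR adjusted p = 0.0165), a call lost without the replicate block and without vehicle replicate 4, irradiated vehicle replicate 3, enzalutamide replicate 4 or irradiated enzalutamide replicate 3.

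The effect was next separated by radiation state, with 2 libraries against 2 in each. Without radiation 55 genes were called (0.192%), 46 of them lower (0.161%) and 9 higher (0.0314%). With radiation the count was again 55 (0.192%), 47 of them lower (0.164%) and 8 higher (0.0279%). Without the replicate block each count was 3, and leaving out 1 library gave 21 to 505 calls without radiation and 9 to 255 with it. All 191 genes lowered in the average had negative log2 fold changes in both states, with medians of -0.31 without and -0.32 with radiation. These genes were selected on the average of the same libraries, which largely sets a shared sign and similar medians. The values are therefore a description and no test of equal effects. ZBTB16 gave -0.93 and -0.74, MBOAT2 -0.89 and -0.93, KLK2 -0.89 and -0.85, TMPRSS2 -0.69 and -0.48, and PMEPA1 -0.62 and -0.44.

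A test of the difference itself found 1 gene (0.00349%), RBMS1, a call lost without irradiated vehicle replicate 4, and 630 genes (2.20%) at an unadjusted p under 0.05. DESeq2 called 0 genes, with 58 at an unadjusted p under 0.05. Of the 191 lowered genes 5 (2.62%) and of the 81 raised genes 5 (6.17%) had an unadjusted p under 0.05 for the difference. For MBOAT2 the difference of the log2 fold changes was -0.04 (95% interval -0.27 to 0.19), for KLK2 0.04 (-0.23 to 0.32) and for ZBTB16 0.19 (-0.04 to 0.42). At this depth and number of libraries the median 95% half-width of a difference was 0.46, so that smaller differences were not detectable for most genes.

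**Figure D5:**
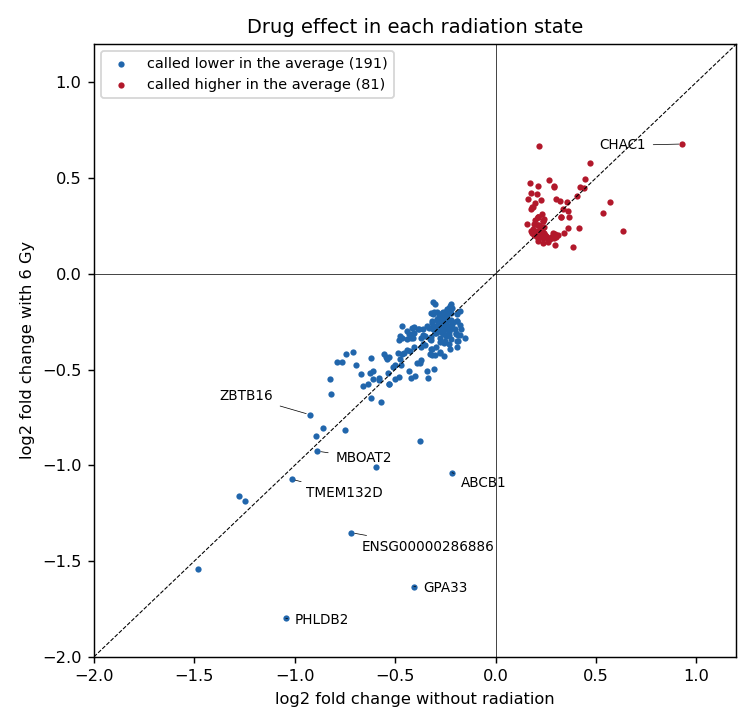
Log2 fold change of enzalutamide over vehicle without radiation (x axis) and with 6 Gy (y axis) for the 191 genes called lower (blue) and 81 called higher (red) in the average; the dashed line marks equal effects. Most genes lie along the line, while ABCB1, GPA33 and ENSG00000286886 lie well below it. The genes were selected on the average of both states, which favours a shared sign.

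Among the largest falls, 3 transcripts were low without radiation and were high only in irradiated libraries. ABCB1, the multidrug efflux pump P-glycoprotein, gave 11.2 and 12.6 CPM in vehicle, 11.1 and 8.81 CPM with drug, 105 and 160 CPM in irradiated vehicle, and 73.4 and 54.9 CPM with both. Radiation thus went with a higher level in each arm, and the irradiated drug libraries lay below the irradiated vehicle libraries. The drug effect was -0.22 without radiation (edgeR adjusted p = 0.976) and -1.04 with it (edgeR adjusted p = 0.000138, a call lost without the replicate block). The difference was -0.82 (95% interval -1.31 to -0.33), with an unadjusted p of 0.00187 and an adjusted p of 1 in edgeR. ABCB1 was also the only 1 of 8 tested targets of the xenobiotic receptor PXR that was called in the average, and it was lower, beside 0.667% of all genes. These targets were imprecisely measured, with a median 95% half-width of 0.37 and intervals within 1.5-fold for 4 of the 8. A single call is therefore no result about the list. The averaged call of ABCB1 was lost without irradiated enzalutamide replicate 4, without the replicate block and in DESeq2.

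ENSG00000286886, which has no symbol, gave 4.52 and 3.45 CPM in vehicle, 2.60 and 2.04 CPM with drug, 44.7 and 59.2 CPM in irradiated vehicle, and 21.4 and 19.2 CPM with both. Here the drug libraries were the lower in both states, by -0.72 without radiation (edgeR adjusted p = 0.478) and -1.35 with it (edgeR adjusted p = 1.32e-06). GPA33, a cell surface antigen, gave 7.59 and 9.47 CPM in vehicle, 6.67 and 7.60 CPM with drug, 84.4 and 26.1 CPM in irradiated vehicle, and 23.4 and 10.9 CPM with both. Its irradiated replicates were far apart, and its averaged call was lost without vehicle replicate 4, irradiated vehicle replicate 3 or either irradiated enzalutamide library, and without the replicate block. The differences between states for these 2 transcripts also had an edgeR adjusted p of 1.

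The first batch, which shares no library with the drug comparison, showed how the lowered genes behaved under radiation alone. Radiation called 731 of 25889 genes there (2.82%). All 191 were tested there, with a median log2 fold change of -0.10, and 138 were below 0. Radiation called 4 of them lower, beside 0.819% of all genes (SLC2A12, TRPM8, PHLDB2 and PLCXD2), and 7 higher, beside 2% (CROT, COL4A5, ELOVL7, RAMP1, TNFAIP8, PRAG1 and ENSG00000251095). In the second batch radiation called 74 of the 191 lower, beside 7.02% of all genes, and 15 higher, beside 8.01%, with a median of -0.13. The lowered genes had a median of 1431 counts per library against 141 over all genes tested, and these shares were not matched for count. ABCB1, at 3.11 for radiation in the second batch, was at 0.10 in the first (edgeR adjusted p = 0.931). ENSG00000286886 was likewise at 3.48 in the second and 0.08 in the first, and GPA33 at 2.04 and -0.21. The second batch's irradiated cells had received DMSO or drug, and batch and that treatment cannot be told apart.

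Lowered genes were long and raised genes short. The median RefSeq gene length was 105.9 kb for the 171 lowered genes with a length (89.5%), 13.7 kb for 69 raised genes (85.2%), and 32.8 kb for tested genes with a mean of at least 50 counts (83.8% with a length). Among the latter the median log2 fold change went from 0.05 in 1753 genes under 5 kb to -0.07 in 1534 genes over 200 kb. The share called lower went from 0.228% to 3.19% and the share called higher from 1.08% to 0%. In genes over 200 kb the median was below 0 in all 4 drug against vehicle pairs, at -0.08 and -0.02 without radiation and -0.07 and -0.07 with it. In genes of 100 to 200 kb the pairs did not share a direction, at 0.01 and -0.02 without radiation and -0.07 and 0.01 with it. Lowered genes also had higher counts, with a median of 1431 per library against 414 in tested genes with a mean of at least 50. The part of gene length and read count in the calls was not tested.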

How the data were processed

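The authors deposited, for each experimental batch, a table of raw read counts for each Ensembl identifier (whole numbers whose totals differ between libraries). The submitters' processing notes name cutadapt 1.8.1, Bowtie2 2.4.4, SAMtools 1.9 and the hg38 build. The counting tool, the annotation release, the use of strand and the treatment of duplicate reads are not given in the sources used here, so values of overlapping genes, antisense genes, pseudogenes and close paralogs are uncertain. Of 60605 identifiers, 60463 (99.8%) matched a table of gene names, and genes without a symbol are given by identifier.

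Counts were tested with edgeR 4.0.16 in R 4.3.3 (TMM factors, filterByExpr over the 4 groups, glmQLFit and glmQLFTest, two-sided, Benjamini-Hochberg over all genes tested, threshold 0.05). The model held drug, radiation and replicate number. A second model with 1 coefficient per group and the replicate number gave the drug contrast in each radiation state and their difference. In batch 1 the libraries t1 and t2 of a replicate number, which the labels do not explain, were summed, and radiation was the only term. Standard errors (SE) are the size of the log2 fold change over the square root of F, and 95% intervals were computed from the SE. The scripts were tested on simulated counts.

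Every group of batch 2 carries replicate numbers 3 and 4. The deviations of same-numbered libraries from their group means correlated across genes with r between 0.102 and 0.262 for the 6 pairs of groups. The labels do not say what a number shares, so the fit without the replicate block is given beside the counts, with the named genes that kept their call in it.

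The members and the gene lists were chosen with earlier results of these data known, and the lists were written from general knowledge. The genes named are the 12 largest falls and 12 largest rises among called genes averaging 50 counts or more and with 1 direction in all 4 drug against vehicle pairs, every gene of the prostate and steroid-shared androgen lists with MBOAT2 and FOLH1, up to 3 genes per direction past the threshold of each other list (else the 2 with the smallest p), and up to 5 genes of smallest p among those past the threshold in the contrasts of the second model. Some genes that the rule selects, and 1 list, are not reported here. Genes named outside this rule, such as KLK15, KLKP1, PLCXD2, CFAP69, ELK4, ELOVL5, ANKH, SLX1A, FAN1, the genes called in batch 1 and those of the closing groups, were chosen after their values were seen. The alternatives tried were the fit without replicate block, RLE factors, library totals, no filter on low counts, a stricter filter, DESeq2 1.42.0, the second model's mean, the 4 libraries of 1 radiation state alone, and leaving out each library.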

Additional observations from a re-analysis of the deposited data

Results flagged for a closer look

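RBMS1, an RNA-binding protein gene, was the single gene whose drug effect differed between radiation states by the test of the difference. Its level was 30.4 and 146 CPM in vehicle replicates 3 and 4, 33.1 and 32.0 CPM with drug, 60.9 and 65.6 CPM in irradiated vehicle, and 132 and 246 CPM with drug and radiation. The log2 fold change was -1.18 without radiation and 1.49 with it, a difference of 2.67 (SE 0.374, 95% interval 1.9 to 3.44, edgeR adjusted p = 0.00459). The negative value without radiation came with 1 high library, vehicle replicate 4, while vehicle replicate 3 lay just below both drug libraries. Both irradiated drug libraries lay above both irradiated vehicle libraries. The call was lost without irradiated vehicle replicate 4, without the replicate block, with library totals, with the stricter filter on low counts and in DESeq2. It held when any other single library was left out, but each of those fits leaves 1 group with a single library that is assumed to vary like the other groups, so without vehicle replicate 4 the value rests on vehicle replicate 3 alone. Its averaged effect was 0.27 (edgeR adjusted p = 0.832).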

How the results depend on the processing

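Without the replicate block the counts of genes called were 18 for the averaged drug effect (main value 272), 3 without radiation (55), 3 with radiation (55), 0 for the difference (1; 343 genes at an unadjusted p under 0.05) and 1349 for radiation (4307). In the first batch, where the block was left out, adding the replicate block moved 731 to 2332. Testing without a filter on low counts gave 516 (310 lower, 206 higher), 159, 141, 39 and, in the first batch, 1157 calls. Fits to the 4 libraries of 1 radiation state gave 155 without and 211 with radiation. The difference gave 0 calls with library totals, with the stricter filter and in DESeq2, and DESeq2 called 2569 genes for radiation. For the averaged effect RLE factors gave 260, library totals 295, the stricter filter 293, the second model 217 and DESeq2 244 calls, and all 272 genes kept their direction in these fits, except that the stricter filter tested 269 of them. In the 6 settings other than the block and single libraries, 131 of 191 lowered and 34 of 81 raised genes were called throughout, where 43 of the 272 had no adjusted p in DESeq2. Leaving out 1 library gave 109 to 792 calls for the average, 21 to 505 without radiation, 9 to 255 with radiation, 0 to 77 for the difference, 2175 to 4168 for radiation and 600 to 1471 in the first batch. FOLH1 changed sign with library totals (0.0042) and ran from -0.054 to 0.037 over the libraries left out, NCAM1 from -0.016 to 0.20 and the averaged effect of RBMS1 from -0.26 to 1.04. The cause of these changes was not tested. With 2 libraries per group, genes of few reads limited the precision, and the median 95% half-width of the averaged log2 fold change was 0.22.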

Other observations

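Several raised genes belong to the amino acid stress response driven by the transcription factor ATF4, a group chosen after the values were seen and therefore given without a test. Of 35 such genes 10 were called higher and 0 lower, beside 0.283% higher among all genes tested, and the group median was 0.16. The count was 0 without the replicate block and 2 without vehicle replicate 4, 3 without irradiated vehicle replicate 4, 4 without vehicle replicate 3, 6 without enzalutamide replicate 4 or irradiated enzalutamide replicate 3, and 12 without enzalutamide replicate 3. CHAC1 and PCK2 were called in all 8 fits that left out 1 library. PCK2, the mitochondrial phosphoenolpyruvate carboxykinase, gave 47.5, 40.9, 59.6 and 41.3 CPM without drug and 64.0, 48.0, 70.4 and 56.5 CPM with drug. CARS1 and MARS1, the cysteinyl and methionyl tRNA synthetases, had log2 fold changes of 0.30 and 0.26. The others called were CHAC1, AARS1, PSAT1, SESN2, DDIT3, STC2 and SLC7A11, while ATF4 itself was at 0.01 (edgeR adjusted p = 0.948). MARS1 and DDIT3 are neighbours on chromosome 12.

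Of 9 targets of BMP and SMAD signalling, also chosen after their values were seen, 5 were called higher, beside 0.283% of all genes, and 0 lower. Their median was 0.27. The count was 0 without the replicate block, 1 without irradiated vehicle replicate 4, 2 without irradiated enzalutamide replicate 3 and 3 without vehicle replicate 4, and ID1 alone was called in all 8 fits that left out 1 library. ID1, an inhibitor of basic helix-loop-helix factors, gave 104, 157, 77.4 and 140 CPM without drug and 120, 182, 112 and 184 CPM with drug, so replicate 4 was the higher in every group and the drug library was the higher in every pair. ID2, SMAD6, SMAD7 and the pseudoreceptor gene BAMBI were the others. Of 59 replication-dependent histone genes, chosen in the same way, 5 were called higher (H4C2, H2AC4, H1-2, H4C3 and H2AC6), beside 0.283% of all genes, with a median of 0.12. The count was 0 without the replicate block and without vehicle replicate 3, 1 without irradiated vehicle replicate 4, 2 without either irradiated enzalutamide library and 10 without enzalutamide replicate 3. Radiation called 54 of the 59 lower in the same libraries, beside 7.02% of all genes. The drug median of the 59 was 0.06 without radiation and 0.20 with it, and this difference was not tested. Histone genes are near-identical and clustered, so their single values are uncertain.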
